A study of Mus musculus with 42 samples.

Results

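The genes described here are 10 core components of the circadian clock: the period genes Per1, Per2 and Per3, the activators Arntl and Clock, the cryptochromes Cry1 and Cry2, the REV-ERB receptors Nr1d1 and Nr1d2, and the output factor Dbp. They were chosen by name from the 44674 genes in the count table, and all 10 passed the filter on low counts. The mice were adult C57BL/6NCrl males of 8 to 12 weeks, and the tissue was their main olfactory epithelium. They were kept under 12 h of light and 12 h of darkness and exposed for 1 h to the odour of a food or to none. The 4 groups were No Odour (5 pools), normal chow diet odour (NCD, 6 pools), the odour of a bacon-flavoured diet (BFD, labelled Bacon, 5 pools) and the odour of a lard-based high-fat diet (HFD, 5 pools). Each pool combined the epithelia of 4 mice and gave 2 libraries, the whole-tissue RNA (input) and the RNA that came down with ribosomes carrying phosphorylated S6 (pulldown). Pools were the replicates. The mice carried no transgene, and the hour at which the pools were taken is not given in the sources used here.

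In mammals the clock is a feedback loop inside each cell. A pair of activators, CLOCK and ARNTL (also called BMAL1), drives the period, cryptochrome, REV-ERB and Dbp genes through E-boxes, and the period and cryptochrome proteins then shut the activators off. The REV-ERB proteins repress Arntl, so that Arntl RNA is at its peak when Nr1d1 and Dbp RNA are near their trough, whereas Clock RNA cycles little in many tissues. Per1 and Per2 can also be switched on within an hour by signals such as light or CREB activation, outside the daily cycle. S6, a protein of the small ribosomal subunit, is phosphorylated in recently active neurons, and the pulldown therefore favours RNA from those cells.

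All 10 are annotated as protein-coding, at these places in GRCm38 (GENCODE M21, whole gene). Per1 lies at chr11:69095217-69109960 and Nr1d1 at chr11:98767932-98775333. Per2 lies at chr1:91415982-91459324, Per3 at chr4:151003652-151044665, Clock at chr5:76209868-76304792, Cry1 at chr10:85131700-85185064, Cry2 at chr2:92403646-92434043 and Nr1d2 at chr14:18204054-18239127. Arntl and Dbp share chromosome 7, at chr7:113207465-113314126 and chr7:45705088-45710203. Per1, Arntl and Dbp are on the plus strand and the other 7 on the minus strand. Exon bases per gene, from 2993 in Dbp to 13727 in Clock, are the lengths used below.

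Promoter windows from RefSeq (GRCm38.p6), running from 250 bases before to 50 bases after each start, were found for 9 of the 10 genes by symbol, 13 windows in all, and Per2 had none. They are shown because they hold, in 4 genes, the elements through which the loop is known to act. Every line reads 5′ to 3′ on the strand of the gene, with the motif in capitals, and no 2 of the motifs overlap.

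Cry1 E-box: tgccggtggtCACGTGgggtgcatgc
Per1 E-box: cacccaagtcCACGTGcagggatgtg
Per3 D-box, nearer: ccgcccgcggTTATGTAAcccccgccgt
Per3 D-box, farther: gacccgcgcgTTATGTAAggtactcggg
Arntl ROR/REV-ERB element: aggcagaaagTAGGTCAgggacggagg

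The Cry1 line lies at chr10:85185099-85185124 (minus strand) and the Per1 line at chr11:69098773-69098798 (plus strand), 60 and 166 bases before the RefSeq start of the window. The Per1 window is 1 of 2 for this gene, and both lie inside the GENCODE gene given above, downstream of its first base. The E-box searched was CACGTG, a palindrome, which occurs in at least 1 window of 8.09% of all 26994 genes and of 2 of the 9 genes here. The D-box TTATGTAA, bound by DBP and its relatives, occurs in 1.1% of genes and in 1 of the 9, Per3, which holds it at chr4:151044806-151044833 and chr4:151044853-151044880 (minus strand). The element TAGGTCA, read by REV-ERB and ROR receptors, occurs in 2.97% of genes and in 1 of the 9, at chr7:113207531-113207557 (plus strand) in Arntl, 30 bases after the start of 1 of its 2 windows. The cyclic AMP response element TGACGTCA occurs in 2.03% of genes and in 0 of the 9. Both strands were searched, and a match is a description of the letters alone.

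Counted per length, as CPM (counts scaled to a common library size by TMM) per kilobase of exon over the 21 inputs, Nr1d1 was the most abundant of the clock genes at 31.7 ± 4.05 (SD, n = 21). Cry2 followed at 18.02 ± 1.11, and the lowest Nr1d1 input, 25.1, was above the highest Cry2 input, 19.8. Nr1d2 came next at 9.86 ± 0.576, and its lowest input, 9.06, was under the highest Cry1 input, 9.29. Cry1 (8.05 ± 0.579), Per2 (7.55 ± 1.16), Dbp (7.02 ± 0.945), Clock (7.00 ± 0.809) and Per1 (6.68 ± 0.987) followed, with neighbours in this order less than 1 SD apart. Per3 (1.66 ± 0.287) and Arntl (1.04 ± 0.118) were the lowest and overlapped each other, at 0.912 to 2.14 and 0.815 to 1.23. In the pulldowns Nr1d1 and Cry2 again led, at 18.8 ± 2.17 and 16.1 ± 1.39, Cry1 stood next at 13.7 ± 1.11, and Per3 was last at 0.827 ± 0.194. The raw counts behind these values ranged from 188 to 321 per input for Arntl and from 1700 to 4021 for Clock.

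Library totals ranged from 24839555 to 36781553 counts in inputs and from 25392812 to 36738330 in pulldowns. Ribosomal RNA and the loci that collect its reads took 21.7% to 32.2% of the No Odour inputs, against 9.76% to 21.9% of the 16 odour inputs. All 8 markers of mature olfactory neurons, among them Omp and Cnga2, were above 0 in every library, at summed levels of 15100 to 19220 CPM in inputs. The summed 4 Bowman's gland markers were at 1969 to 2227 CPM in the No Odour inputs, 1626 to 1933 in NCD, 1447 to 1748 in BFD and 1285 to 1890 in HFD, with no overlap between No Odour and the other groups and none of the 4 at 0. The 4 did not move as 1. By the input tests described below, 1 rose and 1 fell in NCD, and 1 rose and 2 fell in BFD and in HFD. A pair of libraries stood apart. The BFD pulldown of pool 1 had the lowest median correlation with its own group, 0.969, and a supporting-cell marker sum of 2438 CPM, against 939 to 1800 in the other 20 pulldowns. The No Odour input of pool 4 came next at 0.974. Values without them are given for the period genes and Clock in inputs, and for BFD in the ratios and pulldowns.

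The inputs address whether clock gene RNA of the whole epithelium differed after 1 h of food odour, and whether the members changed in the opposite directions that a shift in time of day brings in the textbook loop. Of the 10 genes, 6 differed among the 4 groups (edgeR quasi-likelihood F test, Benjamini-Hochberg adjusted p under 0.05 over all 20451 genes tested), where 36.1% of all genes did. These were Per1, Per2, Per3, Clock, Nr1d1 and Dbp, and each was higher in all 3 odours, apart from Per3, which did not pass in NCD. Arntl, Cry1, Cry2 and Nr1d2 did not pass. Against No Odour, 5 members rose in NCD (all genes, 11.8% higher and 11.6% lower), 6 in BFD (19.3% and 20.5%) and 6 in HFD (11.4% and 10.3%), and 0 fell. The median log2 fold change of the 10 was 0.19, 0.32 and 0.31 in NCD, BFD and HFD, and the median of all genes was −0.02, 0.01 and −0.01. In whole tissue, more cells of a type and more RNA per cell cannot be told apart. The 3 comparisons share the No Odour pools. Where odour inputs lie outside the No Odour range, the share of all genes that do so is not given.

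**Figure D1:**
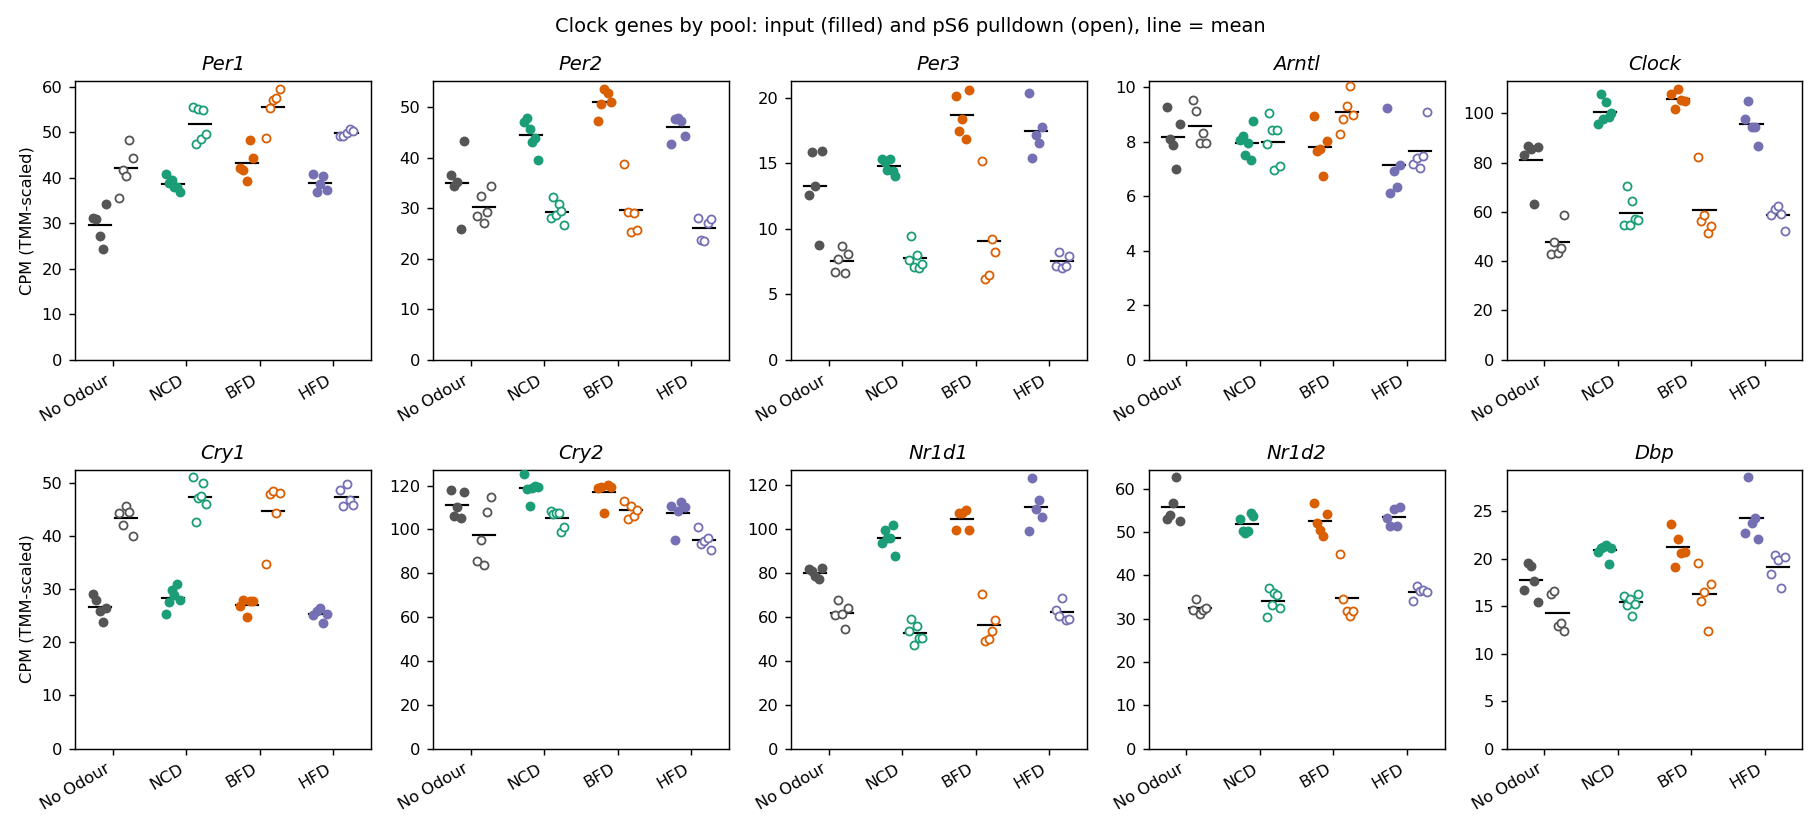
Level of each clock gene in every pool (CPM scaled by TMM, y axis from 0) by odour group, with inputs filled, pulldowns open and a line at the mean. Inputs of Per1, Clock and Nr1d1 sit above all 5 No Odour inputs in all 16 odour pools, whereas the Arntl inputs overlap in every group. How many of all genes separate in this way is not given.

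The period genes, which encode the loop's own repressors, made up 3 of the 6. Per1 was at 31.1, 31.0, 27.1, 24.3 and 34.1 CPM in the No Odour inputs. In NCD it was at 40.8, 38.8, 39.5, 38.0, 38.0 and 36.9, in BFD at 42.1, 41.8, 39.3, 48.2 and 44.3, and in HFD at 40.7, 36.9, 38.5, 40.4 and 37.3. All 16 odour inputs lay above the highest No Odour input. Per1 rose by 0.39 ± 0.07 (log2 fold change ± SE) in NCD, 0.55 ± 0.07 in BFD and 0.39 ± 0.07 in HFD, with adjusted p of 9.61e-04, 1.66e-05 and 0.00119.

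Per2 was at 36.6, 34.4, 35.2, 25.9 and 43.4 CPM in No Odour inputs, at 39.6 to 47.9 (median 44.8) in NCD, at 47.2, 50.6, 53.7, 52.9 and 51.1 in BFD and at 42.8, 47.7, 48.0, 47.4 and 44.3 in HFD. The BFD pools lay above every No Odour pool, and 4 of 6 NCD and 4 of 5 HFD pools did. Per2 rose by 0.34 ± 0.08, 0.54 ± 0.09 and 0.39 ± 0.09 in NCD, BFD and HFD (adjusted p = 0.00628, 6.67e-05 and 0.00376).

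Per3, the period gene whose promoter holds both D-boxes, was at 12.6, 15.9, 13.3, 8.76 and 15.9 CPM in No Odour, 13.99 to 15.3 (median 14.8) in NCD, 20.1, 17.4, 18.4, 16.8 and 20.6 in BFD and 20.4, 15.4, 17.1, 16.5 and 17.7 in HFD. No NCD pool was above the highest No Odour pool, while 5 of 5 BFD and 4 of 5 HFD pools were. Per3 rose in BFD (0.49 ± 0.11, adjusted p = 0.00104) and HFD (0.39 ± 0.11, adjusted p = 0.0142), and its difference in NCD was 0.15 ± 0.11 (adjusted p = 0.322). Without HFD pool 1 the HFD value was 0.32 (adjusted p = 0.0504).

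Pool 4 of No Odour had the lowest level of Per1, Per2, Per3, Arntl, Clock, Cry1, Cry2 and Nr1d1 among the No Odour inputs. Without it, Per1 rose by 0.32, 0.47 and 0.32 in NCD, BFD and HFD, Per2 by 0.24, 0.43 and 0.29, and Per3 by 0.36 and 0.27 in BFD and HFD, with every adjusted p under 0.05.

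Nr1d1 and Dbp, direct targets of the activators, rose in all 3 odours. Nr1d1 was at 81.6, 81.0, 78.4, 77.3 and 82.0 CPM in No Odour and at 93.4, 99.5, 95.8, 95.7, 102 and 87.7 in NCD. It was at 99.7, 107, 107, 109 and 99.6 in BFD and at 99.1, 123, 109, 113 and 105 in HFD. No odour input overlapped the No Odour range. Nr1d1 rose by 0.26 ± 0.06, 0.38 ± 0.06 and 0.46 ± 0.06 in NCD, BFD and HFD (adjusted p = 0.00327, 4.39e-05 and 3.13e-05).

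Dbp was at 16.7, 19.6, 19.2, 17.7 and 15.5 CPM in No Odour, at 20.8, 21.2, 21.2, 21.5, 19.5 and 21.1 in NCD, at 23.6, 19.1, 22.1, 20.6 and 20.7 in BFD and at 22.7, 28.6, 23.7, 24.3 and 22.1 in HFD. All 5 HFD pools, 5 of 6 NCD pools and 4 of 5 BFD pools were above the highest No Odour pool. Dbp rose by 0.24 ± 0.07, 0.26 ± 0.08 and 0.45 ± 0.08 (adjusted p = 0.0231, 0.00846 and 5.20e-04). The NCD call was lost without No Odour pool 1 (0.21, adjusted p = 0.0549) or pool 6 (0.19, adjusted p = 0.0604).

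Nr1d2, the other REV-ERB gene, passed in no odour. It was at 52.5 to 62.8 CPM in No Odour, 49.7 to 54.3 in NCD, 49.0 to 56.7 in BFD and 51.4 to 55.9 in HFD, and the groups overlapped. Its differences of −0.10, −0.09 and −0.06 did not pass (adjusted p = 0.176, 0.232 and 0.484), and with library totals in place of TMM they turned positive in BFD (0.23) and HFD (0.16).

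Exons of Nr1d1 and Dbp overlap those of genes on the opposite strand, Thra over 263 bases (8.55% of Nr1d1 exon bases) and Sphk2 over 539 of the 2993 exon bases of Dbp, and the strand setting of the counting is not given in the sources used here. The input differences of Thra, a thyroid hormone receptor gene, were −0.11, −0.14 and −0.17 (adjusted p = 0.323, 0.174 and 0.144). Those of Sphk2, a sphingosine kinase gene, were −0.21, −0.35 and −0.20 (adjusted p = 0.066, 0.00197 and 0.0943). Neither partner was higher in odour.

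Of the activators, Clock passed and Arntl did not. Clock was at 83.2, 86.9, 85.3, 63.4 and 86.4 CPM in No Odour inputs, at 95.6 to 108 (median 99.3) in NCD, at 108, 102, 110, 105 and 105 in BFD and at 97.8, 105, 94.5, 94.2 and 86.9 in HFD. Every odour pool was above every No Odour pool (lowest HFD pool 86.89, highest No Odour pool 86.87). Clock rose by 0.31 ± 0.07, 0.39 ± 0.07 and 0.24 ± 0.07 (adjusted p = 0.00323, 2.01e-04 and 0.0194). Without HFD pool 2 the HFD value was 0.20 (adjusted p = 0.0646), and without No Odour pool 4 the values were 0.23, 0.29 and 0.15, all still called.

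Arntl, the partner of Clock, was at 9.26, 8.10, 7.87, 7.01 and 8.66 CPM in No Odour, at 8.06, 8.21, 7.52, 7.97, 7.32 and 8.75 in NCD, at 8.95, 7.68, 7.74, 6.75 and 8.01 in BFD and at 9.24, 6.13, 6.94, 6.34 and 7.16 in HFD. The groups overlapped throughout, and 3 of 5 HFD pools lay below the lowest No Odour pool. Its log2 differences were −0.04 (95% interval −0.24 to 0.16) in NCD, −0.07 (−0.28 to 0.14) in BFD and −0.20 (−0.41 to 0.01) in HFD, with adjusted p of 0.808, 0.642 and 0.172. Without HFD pool 1, whose Arntl level was the highest of its group, the HFD difference was −0.31 (adjusted p = 0.0258) and passed.

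The cryptochromes, which encode the loop's second pair of repressors, did not pass in any odour. Cry1 was at 29.1, 27.98, 25.9, 23.8 and 26.4 CPM in No Odour, 25.3 to 31.0 in NCD, 24.7 to 27.9 in BFD and 23.6 to 26.5 in HFD, with differences of 0.09, 0.02 and −0.08 (adjusted p = 0.315, 0.876 and 0.423). Cry2 was at 105 to 118 CPM in No Odour, 111 to 125 in NCD, 107 to 120 in BFD and 95.3 to 112 in HFD, with differences of 0.09, 0.07 and −0.05 (adjusted p = 0.233, 0.338 and 0.562).

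**Figure D2:**
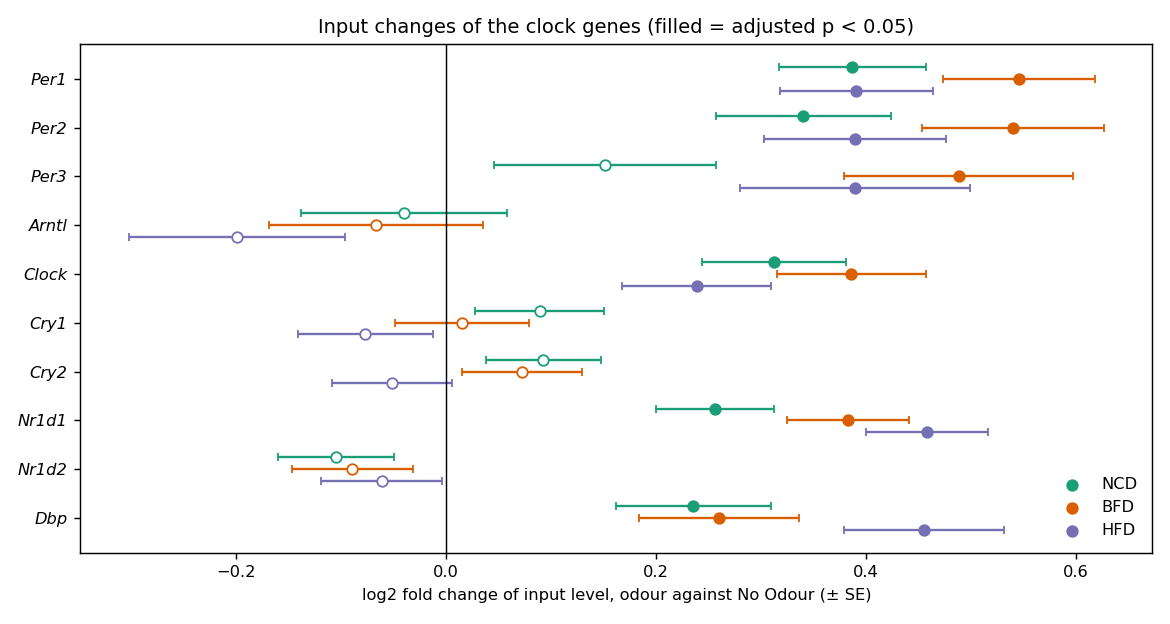
Log2 fold change of each clock gene in inputs against No Odour (x axis, bars ± SE) for NCD, BFD and HFD, with filled points where the adjusted p was under 0.05. Per1, Per2, Clock, Nr1d1 and Dbp are filled in all 3 odours, Per3 in 2, and Arntl has open points.

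A ratio to Arntl within each library needs no scaling between libraries. The log2 ratio of Nr1d1 to Arntl averaged 3.30 ± 0.12 (SD) in No Odour, 3.59 ± 0.16 in NCD, 3.74 ± 0.20 in BFD and 3.95 ± 0.34 in HFD. That of Dbp to Arntl averaged 1.12 ± 0.25, 1.39 ± 0.08, 1.44 ± 0.12 and 1.77 ± 0.34. For Per1 the averages were 1.85 ± 0.10, 2.28 ± 0.12, 2.47 ± 0.23 and 2.45 ± 0.21. They were 2.09 ± 0.17, 2.48 ± 0.16, 2.71 ± 0.21 and 2.70 ± 0.30 for Per2 and 0.67 ± 0.28, 0.89 ± 0.11, 1.26 ± 0.08 and 1.29 ± 0.09 for Per3. The lowest odour pool exceeded the highest No Odour pool for Per1 (2.08 against 1.98) but not for Nr1d1 (3.33 against 3.46), Dbp (1.27 against 1.34), Per2 (2.18 against 2.33) or Per3 (0.68 against 0.97).

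Another 19 genes of the clock and its outputs were read from a list of pathway members. Among the 19, 6 differed over the groups, including Hlf, Csnk1d, Nfil3, Bhlhe40 and Cipc, where 36.1% of all genes did, so that this count was not above the background. In NCD 3 rose and 1 fell, in BFD 3 rose and 0 fell, and in HFD 2 rose and 1 fell, and the list medians were 0.00073, 0.07 and 0.03. Of all genes, 11.8% rose and 11.6% fell in NCD, 19.3% and 20.5% in BFD, and 11.4% and 10.3% in HFD. Hlf, a PAR-bZIP factor related to Dbp, rose in NCD, BFD and HFD by 0.25, 0.22 and 0.29 (adjusted p = 0.00484, 0.00431 and 0.00261), with all 16 odour inputs above the No Odour inputs. Csnk1d, a kinase gene for period proteins, rose in NCD (0.25) and BFD (0.18), Cipc, a CLOCK inhibitor gene, in NCD (0.20), and Nfil3, a repressor acting at D-boxes, in HFD (0.32).

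Genes of the phase opposite to Dbp in the textbook loop can be read beside Arntl. Npas2, a relative of Clock picked for this role after its values were seen, was at 15.9 to 20.4 CPM in No Odour, 16.7 to 19.3 in NCD, 17.8 to 19.2 in BFD and 17.2 to 20.2 in HFD. Its differences were −0.03, 0.04 and 0.03 (adjusted p = 0.766, 0.643 and 0.76). Nfil3, whose promoter window holds the ROR/REV-ERB element on the other strand, had differences of 0.19, 0.17 and 0.32 (adjusted p = 0.114, 0.148 and 0.015). It thus rose in HFD, where Dbp rose as well, and it too was picked after its values were seen. Ciart, in contrast, is an E-box output like Dbp and not a gene of this opposite phase, with 3 CACGTG matches in its promoter window. It was also picked after its values were seen, and was at 0.482 to 1.85 CPM over all inputs. Its differences were −0.66, −0.39 and −0.42 (adjusted p = 0.0755, 0.279 and 0.296). Whether the groups were dissected at different hours was not tested, because no hour is recorded per pool.

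Other gene groups moved in the same inputs, for which the shares of all genes that rose and fell are those given above. Of 12 early-response genes, 7 rose in each odour, and 1 fell in BFD and 0 in NCD and HFD. Fos, an immediate early gene, rose by 1.55, 1.63 and 1.45 in NCD, BFD and HFD, Nr4a1 by 1.26, 1.46 and 1.10, Egr1 by 0.87, 0.95 and 0.77, and Sik1, a CREB-driven kinase gene, by 0.93, 1.02 and 0.83. Among 6 temperature-responsive genes, the cold-inducible Cirbp fell by 0.79, 1.17 and 1.05, and the heat shock genes Hspa1a and Hspa1b rose in NCD by 1.298 and 1.43. Their values in BFD and HFD, between −0.07 and 0.21, did not pass. Of 9 glucocorticoid-responsive genes, 3 fell in each odour, 0 rose in NCD and 1 rose in BFD and in HFD, and the others did not pass. Mt1 fell by 0.73, 1.03 and 0.67 and Tsc22d3 by 0.40, 0.44 and 0.33 in NCD, BFD and HFD. The part of these programmes in the clock gene values was not tested.

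Gene length and ribosomal RNA moved with the groups too. Over all genes, sorted into 5 classes by exon length, the median log2 change in NCD, BFD and HFD went from −0.21, −0.24 and −0.18 in the shortest class to 0.13, 0.22 and 0.13 in the longest. In the longest class, which holds Clock, Per3 and Arntl, 30.8%, 49.2% and 29.6% of genes were called higher. Nr1d1 lay in the middle class, with medians of −0.03, −0.02 and −0.03, and Dbp in the second, with medians of −0.10, −0.12 and −0.09. With an offset per gene for exon length and GC content, Nr1d1 rose by 0.34, 0.48 and 0.52 and Dbp by 0.37, 0.45 and 0.58, and Per1, Per2 and the Per3 calls were kept. Clock then rose in NCD alone (0.15, adjusted p = 0.014), with 0.08 (adjusted p = 0.168) in BFD and 0.06 (adjusted p = 0.354) in HFD. Arntl was then lower in HFD (−0.31, adjusted p = 0.0319), as was Nr1d2 in BFD (−0.19, adjusted p = 0.0223).

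**Figure D3:**
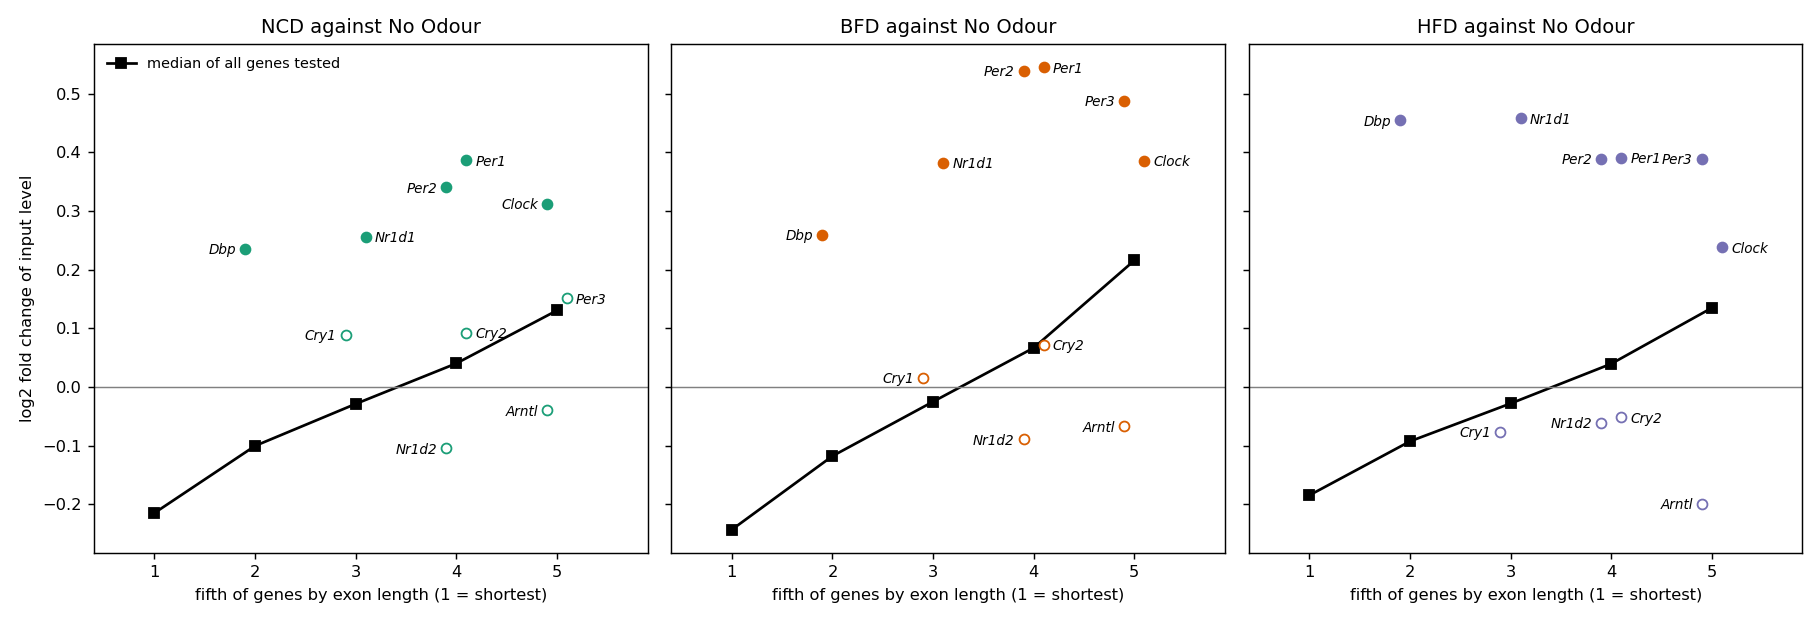
Log2 fold change in inputs (y axis) against the class of genes by exon length (x axis, 1 is the shortest of 5), with squares for the median of all genes tested and circles for the clock genes, filled where called. Dbp and Nr1d1 lie well above the line in each odour, Clock nearer to it, and Arntl below it.

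With the ribosomal RNA share of each input as a covariate, 0 of the 10 members passed in any comparison with No Odour, nor in the test over the 4 groups. At an unadjusted p under 0.05 in the same edgeR test, 1 did in NCD, 2 in BFD and 4 in HFD. Only 0.0733%, 0.0489% and 0.0831% of all genes then passed in NCD, BFD and HFD. The values became 0.30, 0.43 and 0.30 for Per1, 0.06, 0.13 and 0.26 for Nr1d1, 0.17, 0.18 and 0.39 for Dbp and 0.03, 0.13 and 0.07 for Per2. The lowest No Odour input, at 21.7%, was just under the highest odour input, at 21.9%, and the share and the odour cannot be told apart.

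Between odours, 0 members passed in each of the 3 comparisons, where 2.63% of all genes passed for BFD against NCD, 0.249% for HFD against NCD and 0.489% for HFD against BFD. At an unadjusted p under 0.05, 4, 5 and 4 members did, and DESeq2 called 1, 1 and 0. The Per3 difference, BFD minus NCD, was 0.34 (95% interval 0.12 to 0.55, adjusted p = 0.0689). Without No Odour pool 4 in the fit, Per3 (0.33, adjusted p = 0.00451) and Per2 (0.19, adjusted p = 0.0266) passed for BFD against NCD. The differences HFD minus NCD were 0.20 for Nr1d1 (0.09 to 0.32, adjusted p = 0.242) and 0.22 for Dbp (0.07 to 0.37, adjusted p = 0.476), with 5 of 5 HFD Dbp inputs above all NCD inputs. For Cry1 and Cry2 they were −0.17 (−0.29 to −0.04) and −0.14 (−0.26 to −0.03), with adjusted p of 0.575 and 0.593.

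Within groups, the pools give a second view of the loop. The log2 CPM of each of the other 9 members, as deviation from its group mean, was correlated with that of Arntl over the 21 inputs (permutation test, two-sided, exchanged within groups, adjusted over the 9). Per3 went with Arntl (r = 0.62, p = 0.00507, adjusted p = 0.0456, and rho = 0.65, p = 0.00539, adjusted p = 0.0485). Nr1d1 went against it (r = −0.63, p = 0.012, adjusted p = 0.0542, and rho = −0.52, p = 0.0261, adjusted p = 0.117). Dbp had r of −0.23 (p = 0.426, adjusted p = 0.639) and rho of −0.17 (p = 0.514, adjusted p = 0.771), Clock r of 0.29, Per1 0.28, Cry2 0.44, Cry1 0.10, Per2 0.05 and Nr1d2 0.03, none of which passed (adjusted p from 0.346 to 0.908). Without HFD pool 1 and No Odour pool 4, the pools farthest from the median of the Arntl deviation, Per3 had r of 0.36 (adjusted p = 0.455), so that its relation rested on those pools, and Nr1d1 had r of −0.64 (adjusted p = 0.0413). Leaving out single pools gave 0 to 2 relations that passed: Per3 was lost without any of 12 pools, among them No Odour pool 4 (0.58, adjusted p = 0.125) and HFD pool 1 (0.58, adjusted p = 0.189), and Nr1d1 passed without any of 5 pools, among them No Odour pool 4 (−0.75, adjusted p = 0.0132). Depth, ribosomal RNA and library quality are shared by all genes of a pool.

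**Figure D4:**
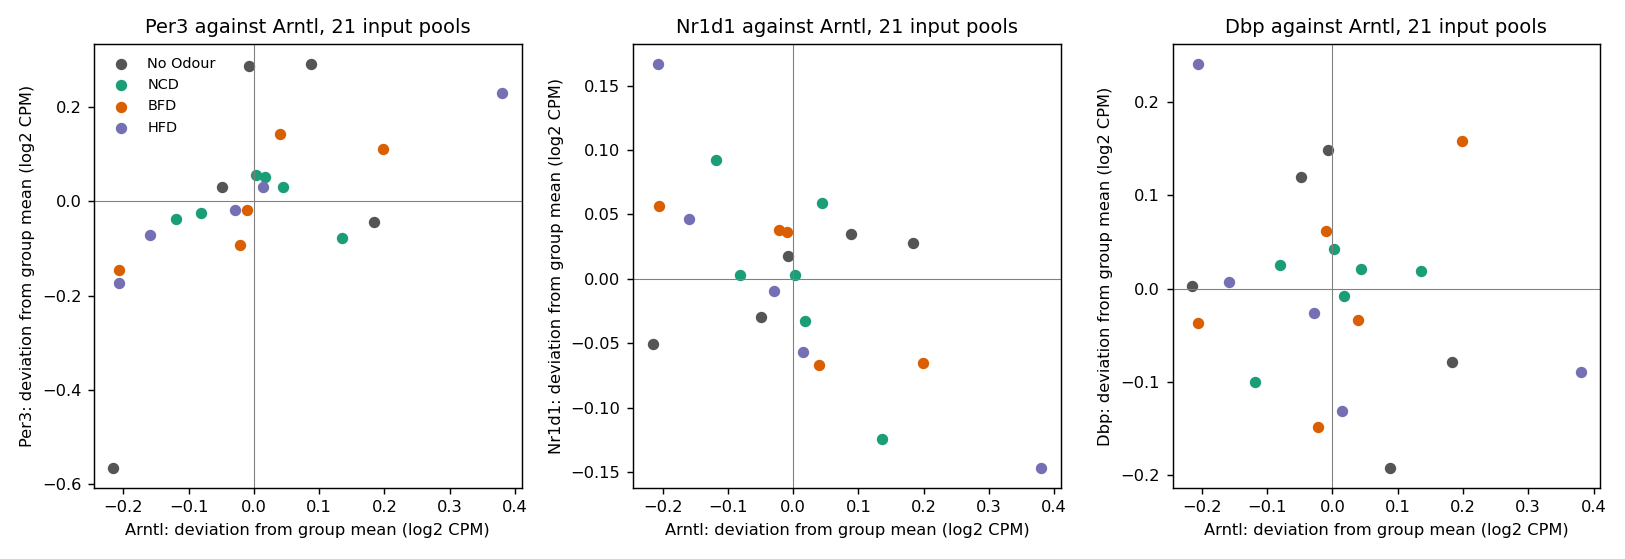
Deviation of Per3, Nr1d1 and Dbp from the group mean (y axis, log2 CPM) against that of Arntl (x axis, log2 CPM) in 21 input pools coloured by odour. Per3 rises with Arntl and Nr1d1 falls, with HFD pool 1 at the far right and No Odour pool 4 at the far left of each panel.

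Over 20421 other genes, the pattern of Arntl in these deviations was most like that of Gm37612 (r = 0.85), Gm19667, A530020G20Rik, Iffo1, Fam160a2, Entpd7, Pi16 and Mir17hg (0.78), and among the least like were Olfr854 (−0.84), Cap1, Rpl17, Zfp326, Thap4, Ldha and Tfg (−0.79). None of these is on a list of clock genes. Among clock genes, Timeless (0.67, place 93 of 20421), Per3 (place 242) and Npas2 (0.60, place 332) were nearest to Arntl. Nr1d1 (−0.63) was the clock gene farthest from it, at place 20060 of 20421, so that genes outside the clock lists opposed Arntl more strongly. The pattern of Dbp was most like that of Plek (0.77), Cyp1b1, Gm38043, Gm42995, D230017M19Rik, Gm11874, Slc39a10 and Cntnap2 (0.72), and among the least like were Rnf145 (−0.84), Pard6a, Ass1, Haghl, Cd79b, Olfr190 and Ap5s1 (−0.73). Hlf was the clock gene nearest to Dbp (0.61, place 96).

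The pulldown sets RNA on phosphorylated ribosomes beside the RNA of the whole tissue. In the No Odour pools, 8 of 10 members differed between pulldown and input (all genes, 31% higher and 28.5% lower), 2 higher and 6 lower. The ratio was tested in 1 fit over all 42 libraries and 21168 genes, with a term for each pool. Cry1 (0.70 ± 0.07, adjusted p = 5.95e-09) and Per1 (0.51 ± 0.07, adjusted p = 1.92e-06) were higher in the pulldown. Per3 (−0.80), Nr1d2 (−0.78), Clock (−0.76), Nr1d1 (−0.38), Dbp (−0.32) and Cry2 (−0.20) were lower, with adjusted p from 2.53e-10 to 0.00907. Per2 (−0.20, adjusted p = 0.0621) and Arntl (0.07, adjusted p = 0.588) did not pass. The Cry2 call was lost without No Odour pool 1 (−0.13, adjusted p = 0.0971). Per2 passed without No Odour pool 4 (−0.30, adjusted p = 0.00692) or BFD pool 1 (−0.20, adjusted p = 0.0236). With the offset for length and GC, Per1 was at 0.13 (adjusted p = 0.094) and no longer passed, and Per2 passed at −0.40 (adjusted p = 3.93e-04). Of the other 19 clock genes 14 passed, 5 higher and 9 lower, among them Nampt (−1.23), Rora (−0.96), Hlf (−0.91) and Csnk1e (0.61), named for size after the values were seen.

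Markers of other cells moved between the libraries as well. The 4 supporting-cell markers were all lower in the No Odour pulldowns (median −1.74; 1027 to 1766 CPM against 3736 to 5518 in inputs), and none was at 0. The 5 blood and immune markers were all higher (median 2.11; 872 to 1236 CPM against 201 to 406), and none was at 0. The 8 mature-neuron markers had a median of 0.28, with 4 higher and 2 lower. Their part in the clock gene ratios was not tested.

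The pulldown-to-input ratio of Per2 and Nr1d1 was lower in all 3 odours than in No Odour, and the other 8 members did not pass. Of all genes, 6.79% rose and 6.31% fell in this ratio in NCD, 12% and 10.5% in BFD, and 7.67% and 8.03% in HFD. The median change of the 10 members was −0.08, −0.07 and 0.0011, and that of all genes −0.0046, 0.000037 and −0.01. The log2 ratio of Nr1d1 was −0.42, −0.26, −0.35, −0.51 and −0.36 in the No Odour pools. It was −0.80, −0.76, −1.03, −0.78, −1.02 and −0.80 in NCD, −0.51, −1.13, −1.10, −1.02 and −0.77 in BFD, and −0.65, −1.02, −0.67, −0.95 and −0.83 in HFD. Apart from BFD pool 1, every odour pool was below every No Odour pool. Nr1d1 fell by 0.49, 0.52 and 0.45 (adjusted p = 0.00355, 9.81e-04 and 0.00583).

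The log2 ratio of Per2 was −0.36, −0.08, −0.38, 0.18 and −0.33 in No Odour, −0.75 to −0.48 in NCD, −0.28, −0.79, −1.08, −0.86 and −0.99 in BFD and −0.60, −1.003, −1.02, −0.81 and −0.67 in HFD. All NCD and HFD pools and 4 of 5 BFD pools were below the No Odour pools. Per2 fell by 0.40, 0.60 and 0.62 (adjusted p = 0.0302, 0.00155 and 0.00222). The NCD call was lost without No Odour pool 4 (−0.31, adjusted p = 0.102) or 2 (−0.38, adjusted p = 0.0692), and without NCD pool 1 (−0.37, adjusted p = 0.0613), 3 (−0.39, adjusted p = 0.0603) or 5 (−0.41, adjusted p = 0.0508). It was also lost with the offset for length and GC (−0.29, adjusted p = 0.132), under which Cry2 passed as higher in BFD (0.27, adjusted p = 0.0264).

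**Figure D5:**
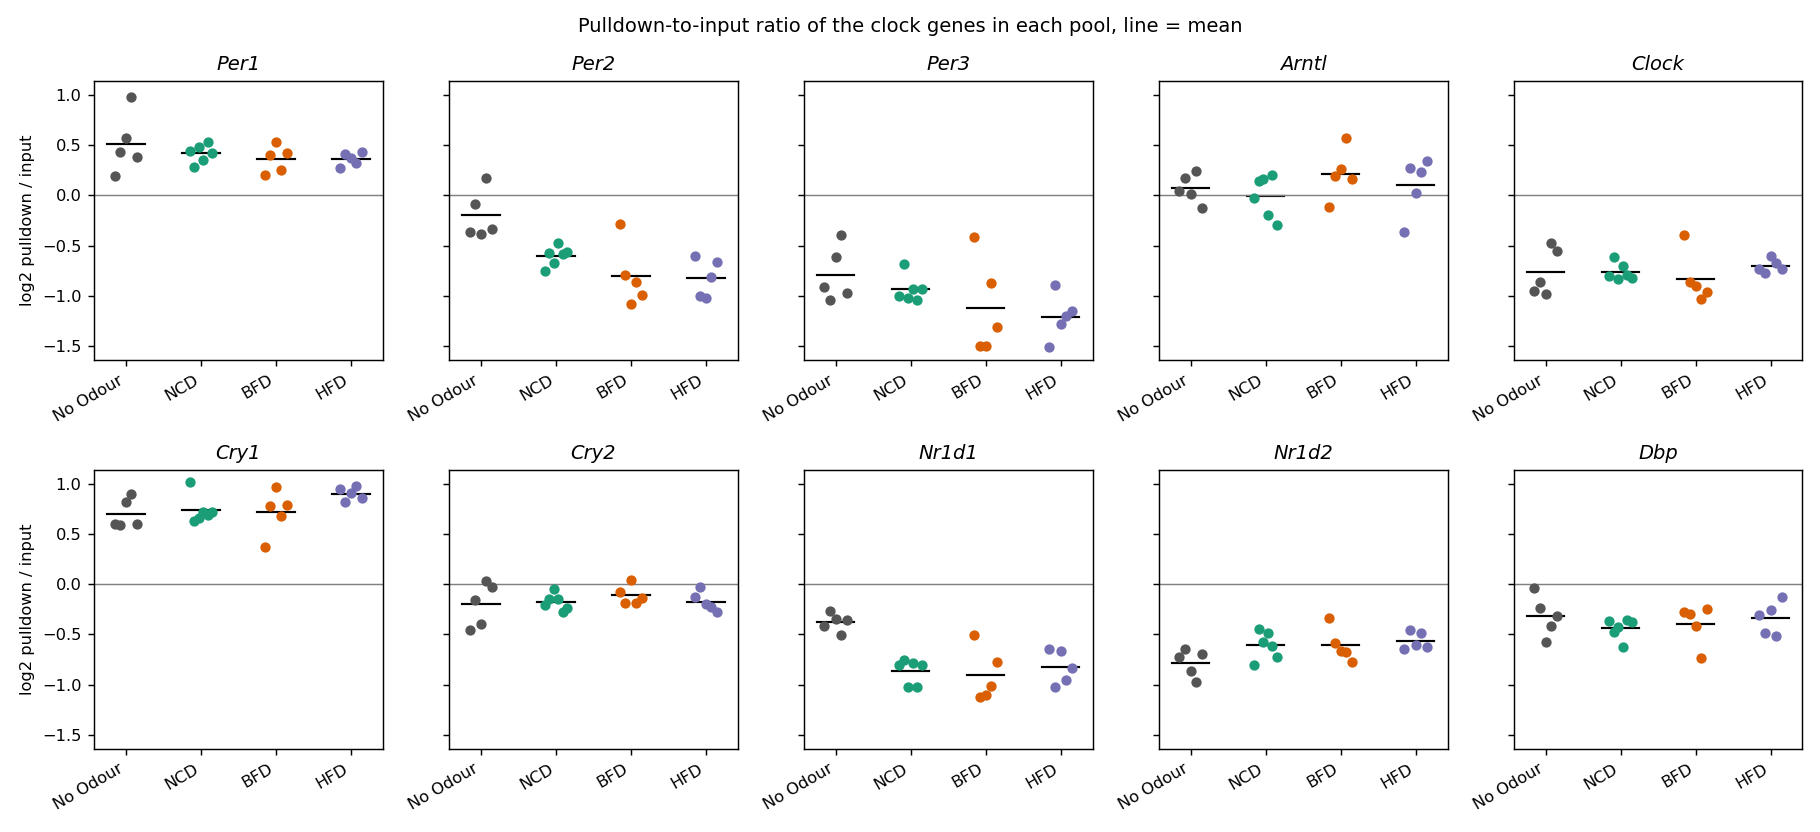
Log2 ratio of pulldown to input for each clock gene in every pool (y axis) by odour group, with a line at the mean. Nr1d1 and Per2 ratios in odour pools lie below the No Odour pools except in BFD pool 1, while Cry1 and Per1 lie above 0 and Nr1d2, Clock and Per3 below it in all groups.

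Without BFD pool 1, whose pulldown stood apart, the BFD falls were larger, at 0.62 for Nr1d1 (adjusted p = 3.07e-05) and 0.73 for Per2 (adjusted p = 3.29e-05), and Per3 passed as lower in BFD (−0.49, adjusted p = 0.0147) and HFD (−0.41, adjusted p = 0.0418). In that pulldown Clock was at 82.4 CPM against 51.4 to 58.9 in the other 4 BFD pulldowns, Per3 at 15.1 against 6.13 to 9.18, Nr1d1 at 70.3 against 49.0 to 58.4 and Per2 at 38.8 against 25.3 to 29.3.

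The pulldown levels can be set beside these ratios. How many of all genes passed in the pulldown libraries alone, or lay outside the No Odour range in pulldowns or ratios, is not given. Per2 was at 27.1 to 34.5 CPM in the No Odour pulldowns, 26.8 to 32.2 in NCD, 25.3 to 38.8 in BFD and 23.6 to 28.1 in HFD, and its pulldown change was −0.06, −0.02 and −0.22 (adjusted p = 0.699, 0.900 and 0.117). Nr1d1 was at 54.4 to 67.4 CPM in No Odour and 47.0 to 58.9, 49.0 to 70.3 and 58.5 to 68.5 in NCD, BFD and HFD. It fell in the NCD pulldowns (by 0.24, adjusted p = 0.043), and its values were −0.13 (adjusted p = 0.349) in BFD and 0.0026 (adjusted p = 0.988) in HFD. For both genes the inputs rose, as given above, and the pulldown levels passed as higher in no odour. Without the BFD pulldown of pool 1, Nr1d1 passed as lower in BFD too (−0.23, adjusted p = 0.0169), and Per2 had −0.15 (adjusted p = 0.158) in BFD and passed as lower in HFD (−0.22, adjusted p = 0.0242).

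Per1 rose in the pulldowns as in the inputs. It was at 35.6, 41.8, 40.4, 48.2 and 44.4 CPM in the No Odour pulldowns, 47.3 to 55.6 in NCD, 48.6 to 59.5 in BFD and 49.1 to 50.7 in HFD, and 15 of 16 odour pulldowns were above the highest No Odour one. Its pulldown change was 0.29, 0.40 and 0.24 (adjusted p = 0.0024, 1.32e-04 and 0.0117), and its ratio changed by −0.09, −0.15 and −0.15 (adjusted p = 0.606, 0.352 and 0.365). Clock rose in the NCD and BFD pulldowns by 0.31 and 0.35 (adjusted p = 0.0466 and 0.0331), with 0.30 (adjusted p = 0.064) in HFD. Without the BFD pulldown of pool 1, Clock no longer passed in BFD (0.20, adjusted p = 0.0731) and passed in HFD (0.30, adjusted p = 0.00587), and Per1 rose in BFD by 0.44 (adjusted p = 1.09e-05).

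Dbp rose in the HFD pulldowns by 0.42 (adjusted p = 0.00397), at 18.4, 20.4, 19.9, 17.0 and 20.2 CPM against 12.4 to 16.6 in No Odour, and its NCD and BFD values were 0.10 (adjusted p = 0.522) and 0.20 (adjusted p = 0.196). Arntl was at 7.95 to 9.54 CPM in the No Odour pulldowns, 6.98 to 9.06 in NCD, 8.28 to 10.0 in BFD and 7.04 to 9.11 in HFD, and none of its pulldown values of −0.11, 0.09 and −0.17 passed (adjusted p = 0.419, 0.561 and 0.224). Cry1, Cry2, Nr1d2 and Per3 did not pass in the pulldowns of any odour, and without the BFD pulldown of pool 1 Nr1d2 passed as higher in HFD (0.15, adjusted p = 0.04).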

How the data were processed

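Inputs and pS6 pulldowns of 21 pools of main olfactory epithelium (42 libraries) were amplified with Ovation RNA-Seq V2, prepared with Nextera XT and sequenced on an Illumina HiSeq instrument. The authors deposited estimated counts per gene, made with nf-core/rnaseq and Salmon on GRCm38; 30.9% of values were not whole, and counts were rounded before testing. The strand setting is not given in the sources used here. Per the labels' processing notes, the authors used DESeq2 1.26 for their own comparisons. Amplification without molecular identifiers means that counts are not independent molecules.

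Genes with at least 10 counts by filterByExpr entered edgeR 4.0.16 quasi-likelihood fits with TMM scaling in R 4.3.3: 1 fit over the 21 inputs with a term for odour, and 1 over all 42 libraries with a term for each pool, library kind and the interaction of library kind with odour. P-values were Benjamini-Hochberg adjusted over all genes, with a threshold of 0.05. Ratios per pool and correlations used log2 CPM with a prior count of 2. The biological coefficient of variation was 11.7% in inputs. Among 90 pairs of libraries of 1 group, the smallest chi-square per degree of freedom was 3.33, so that none was a repeat. P-values measure the spread between pools. The fits were checked on simulated counts. Alternatives were DESeq2 1.42.0, a threshold of 0.001, library totals in place of TMM, other filters, fits on the compared groups alone, each pool left out, and a replicate block. The offset for exon length and GC content, the ribosomal RNA covariate and the pulldown fit without BFD pool 1 were chosen after seeing the data. Rows with no gene name in GENCODE M21 held 0.525% of counts. The members and all gene lists were chosen with earlier results of these data known. All members are named, up to 6 genes of other lists by the smallest p over inputs, and the 8 genes most and least like Arntl and Dbp, apart from some genes that are not reported here.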

Additional observations from a re-analysis of the deposited data

Results flagged for a closer look

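In 7 of 80 groups of 5 or 6 pools, 1 pool lay far from the others of its group by Dixon's test, which chance does in about 1 of 20 groups. In the pulldowns, Clock was at 82.4 CPM and Nr1d2 at 44.9 CPM in BFD pool 1, against 51.4 to 58.9 and 30.7 to 34.6 in the other BFD pools, and Arntl was at 9.11 CPM in HFD pool 6, against 7.04 to 7.49. In the inputs, Clock was at 63.4 CPM in No Odour pool 4, against 83.2 to 86.9. Cry2 was at 107.5 CPM in BFD pool 3, against 119 to 120.5, and at 95.3 CPM in HFD pool 2, against 108.6 to 112.5. Dbp was at 19.5 CPM in NCD pool 5, against 20.8 to 21.5.

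The effect of odour differed between pulldown and input for 2 genes, by the interaction of library kind and odour. For Per2 the pulldown change minus the input change was −0.40 in NCD, −0.60 in BFD and −0.62 in HFD. For Nr1d1 it was −0.49, −0.52 and −0.45. Both genes were higher in the odour inputs, and neither passed as higher in the pulldowns.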

How the results depend on the processing

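Of the values recomputed under settings other than leaving out a pool, 859 of 938 stayed on their side of the threshold. Of those that left out 1 pool, 2255 of 2289 did. In these counts, values that passed in the main fit also kept their sign, whereas values that passed in neither fit could take either sign. For inputs against No Odour (5, 6 and 6 members in NCD, BFD and HFD), a threshold of 0.001 left 1 in NCD and 2 in HFD, library totals in place of TMM gave 8 in NCD, and fitting the compared groups alone left 3 in HFD. The ribosomal RNA covariate left 0 over the 4 groups and 0 in NCD, BFD and HFD. Library totals moved the median of all genes to 0.21, 0.33 and 0.21 in NCD, BFD and HFD and turned the Nr1d2 differences to 0.23 in BFD and 0.16 in HFD, both under that median. For BFD against NCD (0 members), library totals, the length and GC offset and DESeq2 gave 1 each and the compared groups alone 4, and DESeq2 gave 1 for HFD against NCD. For the pulldown-to-input ratio (2 in each odour), the threshold of 0.001 left 0 in NCD, 1 in BFD and 0 in HFD, library totals gave 5 in BFD, and the offset left 1 in NCD. Pulldown libraries alone measure another quantity. Where it or the ratio passed, the sign was opposite for Per1 (0.29, 0.40 and 0.24), Clock in BFD (0.35), Nr1d1 in HFD (0.0026) and Dbp in HFD (0.42), and it was for 6 values that passed in neither.

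Leaving out each pool gave 6 to 6 members over the 4 groups, 4 to 5 in NCD, 6 to 6 in BFD and 5 to 6 in HFD, 0 to 2 for BFD against NCD, 0 to 0 for the other pairs of odours, 7 to 9 for the ratio in No Odour, 1 to 2 for its change in NCD, 2 to 3 in BFD and HFD, and 0 to 2 correlations. A replicate block kept every count at its value, 6, 5, 6, 6 and 0 in inputs and 8, 2, 2 and 2 for the ratio. Inputs of equal number in different odours had a median correlation of deviations of 0.026 over 27 pairs, 3 of them over 0.1. Those of different number had a median of −0.003 over 138 pairs, 9 of them over 0.1, and 16 of 21 inputs were closer to their own number. What an equal number stands for is not stated in the sources used here, so whether such pools shared a day cannot be told. Low counts, 188 to 321 per input, limit what can be seen of Arntl. The causes of these moves were not tested.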

Other observations

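Of the other 19 clock genes, 0 changed their pulldown-to-input ratio in NCD, 3 did in BFD and 2 in HFD (edgeR quasi-likelihood, adjusted p under 0.05). Of all genes, 6.79% rose and 6.31% fell in NCD, 12% and 10.5% in BFD and 7.67% and 8.03% in HFD, so that the counts of the list were not above the background. In NCD 7 had an unadjusted p under 0.05, and the value nearest to the threshold was −0.28 for Npas2 (adjusted p = 0.0529). Csnk1e, a kinase gene for period proteins, was lower in BFD (−0.25, adjusted p = 0.0365) and HFD (−0.28, adjusted p = 0.0285). Nfil3, a repressor at D-boxes, was higher in BFD (0.49, adjusted p = 0.00801), and Timeless was lower (−0.45, adjusted p = 0.0364). Npas2 was lower in HFD (−0.29, adjusted p = 0.0477).

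Further genes of the glucocorticoid and temperature lists differed in inputs. Klf9, a transcription factor gene, rose in BFD (0.21, adjusted p = 0.00555) and HFD (0.19, adjusted p = 0.0265), and its NCD value was 0.13 (adjusted p = 0.112). Zbtb16 fell in HFD by 0.61 (adjusted p = 0.00306), with 0.16 in NCD and 0.06 in BFD. The metallothionein gene Mt2 fell in NCD by 0.43 and in BFD by 0.51. Hsph1, a heat shock protein gene, rose by 0.58, 0.19 and 0.36 in NCD, BFD and HFD, and the cold-inducible Rbm3 fell in BFD by 0.39 (adjusted p = 9.77e-04).

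Among cell type markers in inputs, the 4 immature-neuron markers summed to 692 to 804 CPM in No Odour, 714 to 762 in NCD, 643 to 698 in BFD and 658 to 737 in HFD. Of these 4, 1 rose and 1 fell in NCD, 0 rose and 3 fell in BFD, and 0 rose and 2 fell in HFD. The 4 respiratory ciliated markers summed to 190 to 214 CPM in No Odour and 210 to 250 in the odour groups. The 5 basal-cell markers summed to 95.8 to 103 CPM in No Odour and 87.6 to 102 in the odour groups.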
